A study of Mus musculus with 39 samples.

Results

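Genes of the pluripotency network were followed from the unfertilized mouse oocyte to the 2-cell embryo, in embryos made by in vitro fertilization (IVF) and in embryos cloned by somatic cell nuclear transfer (SCNT). The set holds 10 genes: Pou5f1, Nanog, Sox2, Klf4, Klf5, Klf17, Sall4, Tfcp2l1, Prdm14 and Dppa4. They were chosen by name, and a probe was assigned to a gene where the transcript accession written in the array's own annotation carried that gene symbol in RefSeq. In this way 9 of the 10 genes were matched, by 11 of the 41174 probes of the array, out of 16535 genes that could be named. No probe was matched to Prdm14, and it is not analysed here. Sall4 and Tfcp2l1 had 2 probes each, so for these the probe with the higher mean level over all arrays was used, and the other is given where it differed in call.

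All samples came from mice of the strain (B6xDBA/2)F1. Each of 39 single-colour Agilent 44K arrays received the RNA of 10 pooled oocytes or embryos, or of 500 cumulus cells, after 2 rounds of linear amplification. The groups were metaphase II unfertilized oocytes (OC, n = 7), IVF 2-cell embryos (IVF, n = 6), cloned 2-cell embryos without trichostatin A (TSA(-), n = 8), cloned 2-cell embryos kept in 5 nM trichostatin A for 8 h from activation (TSA(+), n = 6), cloned 2-cell embryos that received Spi-C mRNA at 0.1 mg/ml (Spi-C 0.1, n = 4) or 1.0 mg/ml (Spi-C 1.0, n = 4), and cumulus cells (Cumulus, n = 4). The cloned embryos were made by placing a cumulus cell nucleus from a female of this cross in an enucleated oocyte, so they shared the recipient cytoplasm and the donor cell type. They were collected, like the IVF embryos, after 24 h of culture in KSOM medium. Trichostatin A inhibits histone deacetylases, enzymes that take acetyl groups off histones. Spi-C is a transcription factor of the ETS family, and its mRNA was injected at the pronuclear stage into clones that had no trichostatin A. The labels name neither the animals nor the days behind a replicate, and so the p-values below measure the spread between these samples, part of which may be technical.

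In embryonic stem cells, Pou5f1 (Oct4) and Sox2 bind DNA side by side at an octamer and a neighbouring SOX site, and together with Nanog they occupy the regulatory regions of one another and of many further genes. Around this core, Klf4, Klf5, Sall4 and Tfcp2l1 help to hold the undifferentiated state, with Tfcp2l1 acting downstream of LIF and Stat3, and Klf17 is a related zinc finger factor of oocytes and early embryos. Dppa4 is a chromatin-associated protein that works in a complex with Dppa2. At the 2-cell stage the embryo starts to transcribe its own genome while transcripts stored in the oocyte are removed, so a transcript found at this stage can be maternal, newly made or both.

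Promoter windows of the core factors are shown because these genes encode factors that bind such elements and because their levels in clones went apart, as given below. RefSeq sequence of the mouse build GRCm38.p6 was available for 6 of the 10 genes (Pou5f1, Nanog, Sox2, Klf4, Klf17 and Tfcp2l1). Each window holds the 250 bases before an annotated transcription start site, written 5′ to 3′ on the strand of the gene, and capitals mark exact matches, on either strand, to an octamer core (ATGCAAA), a SOX-type element (ACAATG) or a GC box of the kind bound by SP and KLF factors (GGGCGGG). The first window is that of Sox2 (chr3:34649745-34649994, plus strand), the next is the upstream start site of Nanog (chr6:122707239-122707488, plus strand), then that of Pou5f1 (chr17:35505782-35506031, plus strand) and last that of Klf4 (chr4:55532476-55532725, minus strand).
Sox2: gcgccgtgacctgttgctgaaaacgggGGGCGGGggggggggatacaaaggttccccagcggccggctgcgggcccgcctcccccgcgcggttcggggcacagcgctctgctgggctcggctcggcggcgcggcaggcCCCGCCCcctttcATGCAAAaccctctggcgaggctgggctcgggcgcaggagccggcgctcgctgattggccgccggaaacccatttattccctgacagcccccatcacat
Nanog: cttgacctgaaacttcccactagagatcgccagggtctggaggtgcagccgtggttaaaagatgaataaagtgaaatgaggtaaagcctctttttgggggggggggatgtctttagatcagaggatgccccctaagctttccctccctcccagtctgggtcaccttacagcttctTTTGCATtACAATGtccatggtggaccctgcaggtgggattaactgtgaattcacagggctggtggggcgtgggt
Pou5f1: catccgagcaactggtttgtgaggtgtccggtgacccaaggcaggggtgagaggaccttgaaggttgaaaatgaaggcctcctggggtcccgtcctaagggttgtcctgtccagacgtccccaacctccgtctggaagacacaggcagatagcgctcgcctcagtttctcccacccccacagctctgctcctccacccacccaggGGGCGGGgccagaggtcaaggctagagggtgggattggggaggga
Klf4: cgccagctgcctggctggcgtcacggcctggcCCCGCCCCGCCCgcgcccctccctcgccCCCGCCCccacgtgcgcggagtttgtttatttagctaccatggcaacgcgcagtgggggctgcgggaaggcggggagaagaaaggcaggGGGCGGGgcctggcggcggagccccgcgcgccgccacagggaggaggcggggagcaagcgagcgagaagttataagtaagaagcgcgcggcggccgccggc
The Sox2 window held an octamer core 99 to 93 bases before the start, in the sense direction, and 2 GC boxes. In the Nanog window an octamer core in the reverse direction lay 75 to 69 bases before the start, followed after 1 base by the SOX-type element at 67 to 62. The Pou5f1 window held 1 GC box, 45 to 39 bases before the start, and neither of the other elements, while the window of a second annotated start of Pou5f1 (chr17:35508557-35508806, plus strand, not printed) held a SOX-type element 158 to 153 bases before it and no GC box. The Klf4 window held 4 GC boxes, of which the first and the next overlapped. None of the 3 was found in the windows of Klf17 and Tfcp2l1. Among all 32851 windows of this length, 4.125% held the octamer core, 10.69% the SOX-type element and 23.4% the GC box. A match is a run of letters and was not tested as a binding site.

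Levels are given as the log2 of the processed signal minus the 75th percentile of the same array, so that 0 stands for a probe at that percentile and 1 unit for a doubling. Levels of different probes are not set against each other, since probes differ in how brightly they report. The share of probes well above background, by the scanner software's own call, was 48.6 to 59.9% in OC, 66.8 to 77.5% in the 2-cell groups and 58.2 to 65.7% in Cumulus, and the 75th percentile itself lay at 279 to 527 signal units in OC against 1029 to 2707 in the 2-cell groups. Oocyte markers (11 with a probe) summed to 3718 to 6554 times the 75th percentile signal in OC, 731 to 796 in IVF and 1.02 to 1.97 in Cumulus, where 7 of them were well above background on no array. Markers of 2-cell embryos (9 with a probe) summed to between 174 and 237 in IVF and to less in every other group, with 27.8 to 43.0 in OC. TSA(-) arrays lay between 50.6 and 131 for these markers, TSA(+) arrays between 76.0 and 146 and Spi-C injected clones between 46.9 and 81.9. Cumulus markers (14 with a probe) summed to 285 to 310 in Cumulus and to at most 11.9 in any oocyte or embryo group. The Spi-C arrays, on 2 slides, and the Cumulus arrays, on 1 slide, were read with another scanner model and software version than the rest, so for these groups batch and group cannot be told apart. OC, IVF, TSA(-) and TSA(+) shared slides and scan days.

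Of the 9 measured genes, Sox2 was 30.2- to 30.9-fold lower in clones with and without trichostatin A than in IVF embryos, and Klf5 was 2.42- to 3.43-fold lower. In TSA(-) against IVF, 2 of the 9 measured genes were lower (Sox2 and Klf5) and 0 were higher, where 18.7% of the 39520 probes tested were called, 8.58% higher and 10.2% lower. At an adjusted p under 0.05 this came to 4 of the 9 genes and 27.8% of all probes. In TSA(+) against IVF, 3 of the 9 were lower (Sox2, Klf5 and Sall4) and 0 were higher, against 18.8% of all probes, 8.02% higher and 10.8% lower. In TSA(+) against TSA(-), 0 of the 9 were called, against 0.144% of all probes, and 0 had an unadjusted p under 0.05 in limma or were called by the one-way test with Tukey's procedure. Calls were made with limma at a Benjamini-Hochberg adjusted p under 0.01. The fit behind these comparisons took a single spread per probe over OC, IVF, TSA(-), TSA(+) and Cumulus. Wide scatter of a probe among OC or Cumulus arrays therefore widens the intervals and raises the p-values between 2-cell groups. Comparisons that share the IVF or TSA(-) arrays are not independent, and they are given side by side.

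More of the set was called relative to the oocyte, where more of all probes were called too. From OC to IVF, 3 genes were higher (Klf4, Klf5 and Dppa4) and 1 was lower (Sall4), where 66% of all probes were called, 23.4% higher and 42.6% lower. From OC to TSA(-), 3 were higher (Nanog, Klf5 and Dppa4) and 3 lower (Pou5f1, Sox2 and Sall4), against 70.1% of all probes, 23.5% higher and 46.6% lower. The median of all probes lay at -0.87 from OC to IVF and -0.99 from OC to TSA(-) on this scale, -0.29 and -0.31 after quantile normalization, and -1.58 and -1.65 after centring each array on its median, and differences of this size in comparisons with OC rest on the scaling. All 9 genes were higher in IVF than in Cumulus, where 55.2% of all probes were called and 31.2% were higher, and all 9 were higher in TSA(-) than in Cumulus, where 54.9% were called and 30.4% were higher. Between Spi-C injected clones of both doses combined (Spi-C NT) and TSA(-), 4 genes were higher (Klf5, Klf17, Sall4 and Tfcp2l1) and 1 was lower (Pou5f1), against 21.2% of all probes, 12.3% higher and 8.89% lower. Between Spi-C NT and IVF, 1 was higher (Klf17) and 2 were lower (Pou5f1 and Sox2), against 36.3%, 19.5% higher and 16.8% lower. At an adjusted p under 0.05 the latter comparison called 6 of the 9 genes and 47.8% of all probes. Between the 2 doses 0 of the 9 were called, against 0.00506% of all probes, and 0 had an unadjusted p under 0.05 in limma or were called by Tukey's procedure.

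**Figure D1:**
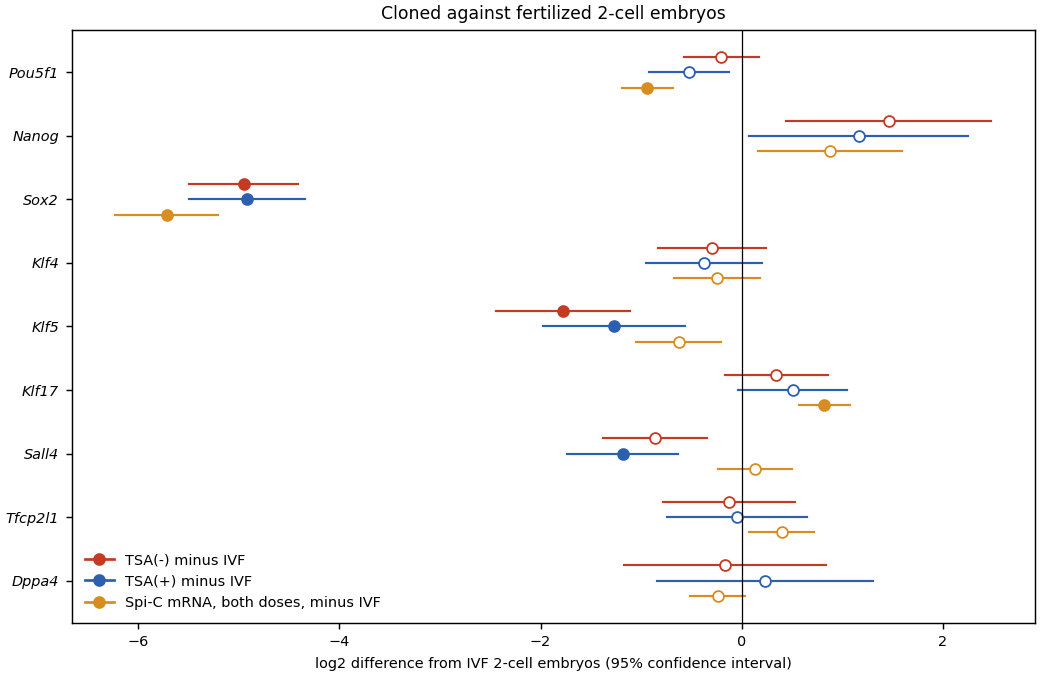
Difference in log2 level between each cloned group and IVF embryos for the 9 measured genes, with 95% confidence intervals from limma. Filled points passed an adjusted p of 0.01 and open points did not. Sox2 lay at -4.95 in TSA(-), -4.92 in TSA(+) and -5.72 in Spi-C NT, to the left of every other gene.

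Sox2, an HMG box factor and the DNA partner of Pou5f1, had the largest difference between clones and IVF embryos of the 9 genes. The lowest, median and highest levels were 0.37, 1.87 and 2.76 in OC, 1.85, 2.29 and 2.56 in IVF, -3.44, -2.70 and -1.92 in TSA(-), and -3.31, -2.59 and -2.22 in TSA(+). The Spi-C 0.1 arrays read -3.05, -3.94, -3.83 and -3.11, the Spi-C 1.0 arrays -3.96, -2.57, -3.04 and -4.22, and the Cumulus arrays -8.93, -8.68, -8.20 and -8.60, the last not well above background. Every OC and IVF array lay above every cloned array, and every cloned array lay above every Cumulus array. The mean was 2.25 ± 0.24 (SD, n = 6) in IVF and -2.70 ± 0.44 (SD, n = 8) in TSA(-), a difference of -4.95 (SE 0.26, 95% interval -5.49 to -4.41, limma adjusted p = 2.2e-14), or 30.9-fold lower. TSA(+) was 30.2-fold lower than IVF, by -4.92 (SE 0.28, adjusted p = 1.4e-13).

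The transcript was well above background in the oocyte, and at the 75th percentile scaling IVF minus OC was 0.43 (95% interval -0.13 to 0.99, limma adjusted p = 0.153). This rests on the scaling: IVF was called higher than OC after quantile normalization (1.09, adjusted p = 0.000301) and with normexp background correction before it (1.02, adjusted p = 2.3e-05). These settings share the quantile step, and below normexp stands for that correction followed by quantile normalization. With arrays centred on their median the difference was -0.27 (limma adjusted p = 0.375). TSA(-) was lower than OC, at a difference of -4.52 (SE 0.25, adjusted p = 7.0e-16). Between TSA(+) and TSA(-), Sox2 differed by 0.03, with an interval from -0.51 to 0.57. Spi-C NT, read with another scanner, was 52.7-fold lower than IVF, by -5.72 (SE 0.25, limma adjusted p = 9.7e-16). Spi-C NT minus TSA(-) was -0.77 (adjusted p = 0.0113), short of the threshold. That difference passed after quantile normalization (-0.95, adjusted p = 0.0033), with median centring (-0.95, adjusted p = 0.00353), with normexp (-0.55, adjusted p = 0.00869), among probes well above background throughout a group (adjusted p = 0.00864), and without TSA(-) replicate 4, Spi-C 1.0 replicate 2 or 3, or Spi-C 0.1 replicate 1 (-0.90 to -0.83). Neighbours in an order of group means were compared in a limma fit of all 7 groups. In the order for Sox2 (IVF, OC, TSA(+), TSA(-), Spi-C 1.0, Spi-C 0.1, Cumulus), the neighbours that differed were OC and TSA(+), by 4.49, and Spi-C 0.1 and Cumulus, the latter not well above background.

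The Sox2 difference between TSA(-) and IVF lay between -4.88 and -4.53 within the 3 slides that held both groups, and between -5.35 and -4.08 within the 3 slides that held TSA(+) and IVF. Over 28 alternative settings it ranged from -5.32 to -4.64 for TSA(-), and it was called in each of them. TSA(-) was at least 13.8-fold above Cumulus, the donor cell type, where the probe was not well above background.

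**Figure D2:**
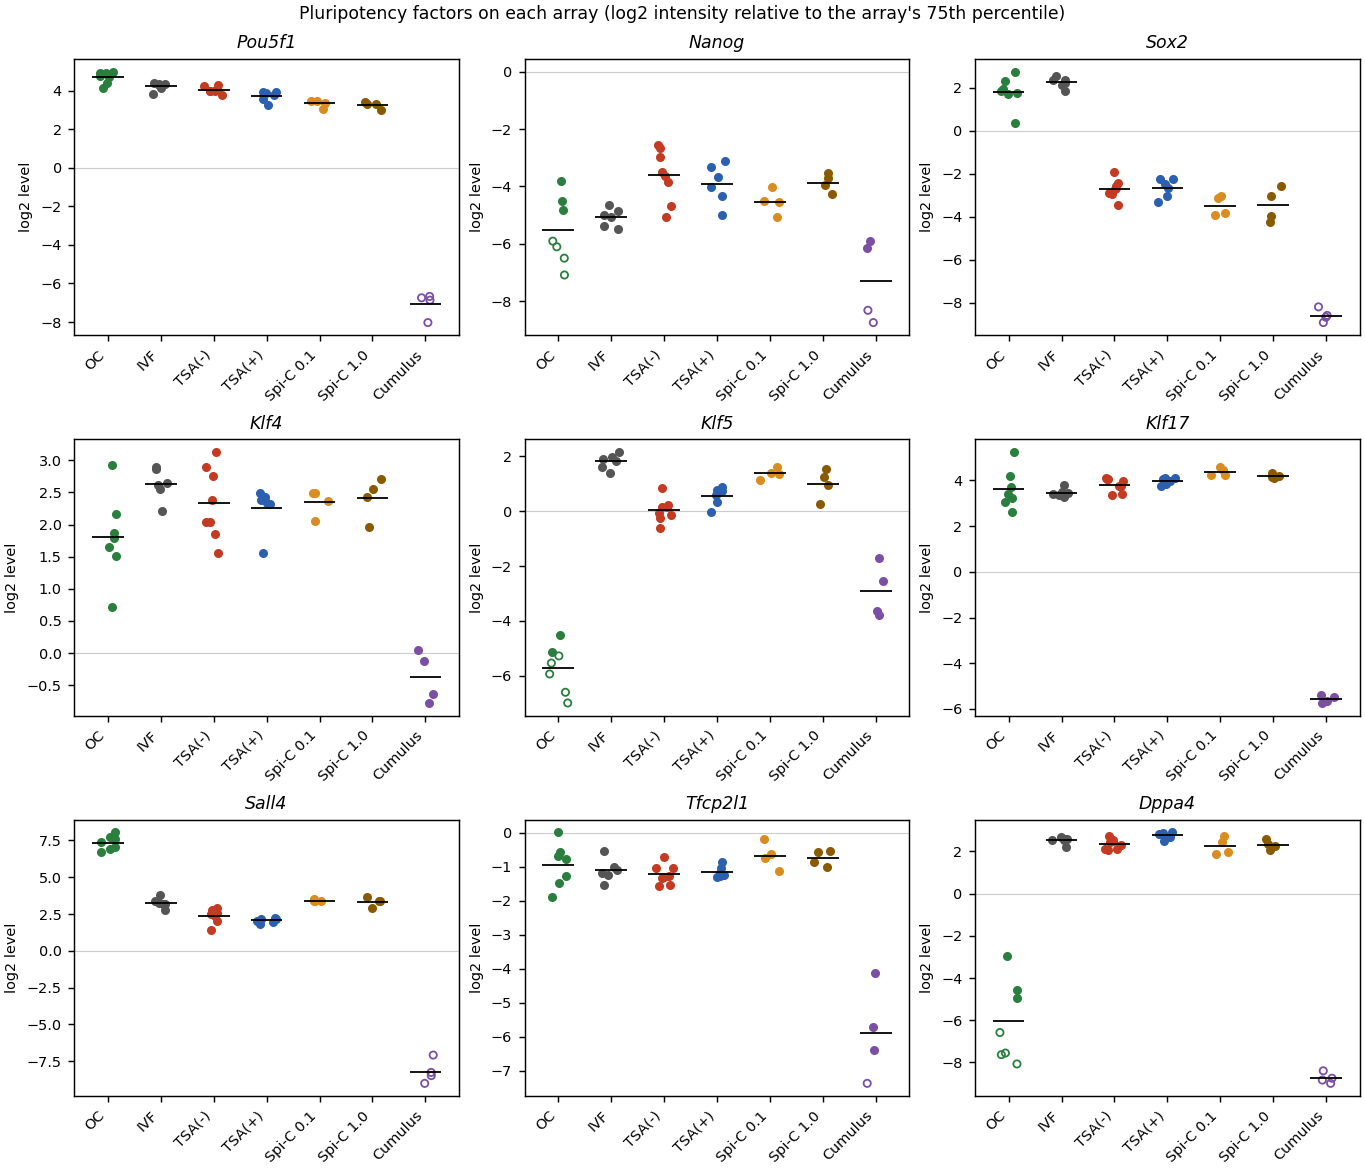
Log2 level of each of the 9 genes on each of the 39 arrays by group, relative to the 75th percentile of the array, with the group mean as a bar. Filled points were well above background and open points were not. Sox2 shows the gap between the IVF and OC arrays, at 0.37 or above, and the cloned arrays, at -1.92 or below, whereas the TSA(-) and IVF arrays of Pou5f1 overlap.

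Pou5f1, the POU factor Oct4, read between 3.0 and 4.98 on every oocyte and embryo array. Its lowest, median and highest levels were 4.13, 4.76 and 4.98 in OC, 3.83, 4.33 and 4.42 in IVF, 3.76, 4.0 and 4.30 in TSA(-), and 3.25, 3.82 and 3.91 in TSA(+). It read 3.36, 3.47, 3.02 and 3.48 in Spi-C 0.1, 3.43, 3.31, 3.0 and 3.31 in Spi-C 1.0, and -8.03, -6.75, -6.87 and -6.67 in Cumulus, the last not well above background. TSA(-) and IVF overlapped, with a difference of -0.20 (95% interval -0.58 to 0.17, limma adjusted p = 0.456), and TSA(+) minus IVF was -0.52 (adjusted p = 0.0437).

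The Spi-C injected clones all lay below every TSA(-) array for Pou5f1, at 3.30 ± 0.19 (SD, n = 8) against 4.03 ± 0.17 (SD, n = 8). The difference of -0.73 (SE 0.11, limma adjusted p = 1.3e-05) is 1.66-fold, and against IVF it was -0.94 (SE 0.12, 1.91-fold, adjusted p = 4.3e-07), both in groups read with different scanners. Of the oocyte markers 5 of 11 were also lower in Spi-C NT than in TSA(-) and 1 was higher, against 8.89% and 12.3% of all probes. Their median was -0.33 beside 0.15 over all probes, and their part in the Pou5f1 difference was not tested. TSA(-) was lower than OC by -0.65 (adjusted p = 0.00129) at the 75th percentile scaling, but after quantile normalization the difference turned to 1.03, and to 1.06 with normexp background correction before it. In the order of group means, from OC through IVF, TSA(-), TSA(+), Spi-C 0.1 and Spi-C 1.0 to Cumulus, no neighbours differed before the last step. The place of OC rests on the scaling. IVF minus OC was called at 1.11 after quantile normalization (limma adjusted p = 2.2e-05) and at -1.15 with arrays centred on their median (adjusted p = 2.7e-06). IVF embryos were at least 1685-fold and TSA(-) clones at least 1462-fold above Cumulus, the donor cell type, where the probe was well above background on none of 4 arrays.

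Nanog, a homeodomain factor switched on later in preimplantation development, was dim throughout. Its lowest, median and highest levels were -7.09, -5.91 and -3.81 in OC, with 3 of 7 arrays well above background, -5.48, -5.02 and -4.66 in IVF, -5.08, -3.56 and -2.55 in TSA(-), and -5.0, -3.84 and -3.13 in TSA(+). The Spi-C 0.1 arrays read -5.07, -4.50, -4.53 and -4.03, the Spi-C 1.0 arrays -3.94, -4.28, -3.55 and -3.69, and the Cumulus arrays -6.16, -8.75, -8.32 and -5.92. The cloned means were above that of IVF, but the TSA(-), TSA(+) and Spi-C 0.1 arrays overlapped those of IVF. All Spi-C 1.0 arrays, read with another scanner, lay above the highest IVF array.

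TSA(-) minus IVF was 1.46 for Nanog (SE 0.50, 95% interval 0.44 to 2.48, limma adjusted p = 0.0273), which missed the threshold but passed with only the groups compared in the fit (adjusted p = 0.00804), and within scan days it ran from -0.10 to 2.83. TSA(+) minus IVF was 1.16 (adjusted p = 0.102) and Spi-C NT minus IVF was 0.88 (adjusted p = 0.0403), and these too passed with only the groups compared (limma adjusted p = 0.009998 and 0.00579). TSA(-) was 3.77-fold above OC, by 1.92 (SE 0.48, adjusted p = 0.000659), and this was not called with arrays centred on their median (1.26, adjusted p = 0.0128), while it ran from -0.43 to 3.41 within slides. IVF exceeded Cumulus, where 2 of 4 arrays were well above background, by 2.21 (adjusted p = 0.00175). This call was lost without Cumulus replicate 2 (1.72, adjusted p = 0.018) or replicate 3 (1.87, adjusted p = 0.0133), with normexp (0.30, adjusted p = 0.321), after quantile normalization (1.72, adjusted p = 0.0601), with median centring (1.32, adjusted p = 0.0403) and by Tukey's procedure (adjusted p = 0.0103). In the order of group means (TSA(-), Spi-C 1.0, TSA(+), Spi-C 0.1, IVF, OC, Cumulus), the neighbours that differed were OC and Cumulus, by 1.75.

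Klf5, a zinc finger factor needed for the first lineages of the blastocyst, was low in the oocyte and high in every 2-cell group. Its lowest, median and highest levels were -7.00, -5.54 and -4.50 in OC, with 2 of 7 arrays well above background, 1.41, 1.88 and 2.16 in IVF, -0.59, 0.03 and 0.86 in TSA(-), and -0.02, 0.67 and 0.87 in TSA(+). It read 1.62, 1.41, 1.38 and 1.15 in Spi-C 0.1, 0.26, 0.94, 1.54 and 1.24 in Spi-C 1.0, and -1.71, -2.55, -3.80 and -3.65 in Cumulus. All IVF arrays lay above all TSA(-) and TSA(+) arrays, and the Spi-C arrays overlapped both sides. IVF exceeded OC by 7.54 (SE 0.33, limma adjusted p = 3.8e-18) and TSA(-) exceeded OC by 5.76, and with normexp the differences were 5.61 and 3.78. With most OC arrays not well above background, their size is not closely measured.

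Against IVF, Klf5 was 3.43-fold lower in TSA(-), by -1.78 (SE 0.32, 95% interval -2.44 to -1.11, limma adjusted p = 9.9e-05), and 2.42-fold lower in TSA(+), by -1.27 (SE 0.35, adjusted p = 0.00585). Within slides these differences lay between -2.21 and -1.39 and between -1.56 and -0.68. With slide as a fixed block the TSA(-) difference was -1.64 and missed the threshold (adjusted p = 0.0156). The TSA(+) call was lost on leaving out 7 of the 12 arrays in turn, namely IVF replicates 1, 2, 3 and 5 and TSA(+) replicates 4, 5 and 6, where the value ran from -1.28 to -1.16 and the adjusted p reached 0.0182. It was also lost with slide as a fixed block (-1.21, adjusted p = 0.0362), with scan day as a block (-1.22, adjusted p = 0.0171) and with median centring (-1.04, adjusted p = 0.0239). TSA(+) minus TSA(-) itself was 0.50 (interval -0.16 to 1.17, adjusted p = 0.459), so a difference between treated and untreated clones was not shown.

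Spi-C NT, read with another scanner, was 2.22-fold above TSA(-) for Klf5, by 1.15 (SE 0.19, limma adjusted p = 4.0e-05). Spi-C NT minus IVF was -0.63 (adjusted p = 0.014), which passed with median centring (-0.76, adjusted p = 0.00226). In the order of group means (IVF, Spi-C 0.1, Spi-C 1.0, TSA(+), TSA(-), Cumulus, OC), neighbours differed from TSA(-) to Cumulus, by 2.97, and from Cumulus to OC, by 2.79. Relative to its own 75th percentile, each Cumulus array read higher than each OC array.

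Klf4, a zinc finger factor used with Pou5f1 and Sox2 in reprogramming, had means between 2.25 and 2.63 in all 2-cell groups, and single arrays from 1.56 to 3.13. OC ranged from 0.72 to 2.92 and Cumulus from -0.78 to 0.04, so it was measured above background in the donor cells too. TSA(-) minus IVF was -0.30 (95% interval -0.83 to 0.25, limma adjusted p = 0.461) and TSA(+) minus IVF was -0.38 (adjusted p = 0.347). IVF exceeded OC by 0.83 (adjusted p = 0.0077), with overlapping arrays. That call was lost with arrays centred on their median (0.12, adjusted p = 0.673), with slide or scan day as a block, with only the groups compared, by Tukey's procedure, and on leaving out any 1 of 10 arrays (OC replicates 2, 3, 4, 5 and 7 and IVF replicates 1 to 5), with values of 0.65 to 0.84 and adjusted p up to 0.0255. TSA(-) minus OC was 0.53 (limma adjusted p = 0.0562), not called. It passed after quantile normalization (1.26) and with normexp (1.31), and turned to -0.12 with median centring. IVF was 8.03-fold above Cumulus.

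Klf17 had a level between 3.27 and 4.60 on every 2-cell array, while OC ranged from 2.60 to 5.24. The means were 3.47 ± 0.17 (SD, n = 6) in IVF, 3.81 ± 0.30 (SD, n = 8) in TSA(-), 3.97 ± 0.14 (SD, n = 6) in TSA(+) and 4.29 ± 0.16 (SD, n = 8) in Spi-C NT. The Spi-C arrays read 4.60, 4.46, 4.24 and 4.24 at 0.1 mg/ml and 4.18, 4.17, 4.33 and 4.12 at 1.0 mg/ml, all above the highest TSA(-) array at 4.10. Spi-C NT, read with another scanner, exceeded IVF by 0.82 (SE 0.12, 1.77-fold, limma adjusted p = 4.0e-06) and TSA(-) by 0.48 (SE 0.11, adjusted p = 0.00198). The latter call was lost with arrays centred on their median (0.30, adjusted p = 0.0928) with all 7 groups fitted together (adjusted p = 0.094) and with only the groups compared (adjusted p = 0.0111). TSA(+) minus IVF was 0.51 (limma adjusted p = 0.163) and passed in the last of these settings (adjusted p = 0.00663). TSA(-) minus OC was 0.17 (adjusted p = 0.509), not called. It passed after quantile normalization (1.53) and with normexp (1.44), and turned to -0.48 with median centring. Cumulus read -5.74 to -5.40, 525-fold below IVF. In the orders of group means of Klf4, Klf17 and Tfcp2l1, the neighbours that differed were Cumulus and the group next to it.

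Sall4, a zinc finger partner of Pou5f1 and Nanog that is also a maternal transcript, was highest in the oocyte. Its lowest, median and highest levels were 6.69, 7.40 and 8.05 in OC, 2.78, 3.19 and 3.77 in IVF, 1.41, 2.53 and 2.90 in TSA(-), and 1.81, 2.09 and 2.23 in TSA(+). It read 3.51, 3.38, 3.37 and 3.40 in Spi-C 0.1 and 2.93, 3.40, 3.64 and 3.41 in Spi-C 1.0, and in Cumulus it lay between -9.01 and -7.09, not well above background. No OC array overlapped any other group. From OC to IVF it fell by 4.10 on the log2 scale (SE 0.26, limma adjusted p = 1.6e-14), or 17.1-fold, and TSA(-) was 31.1-fold below OC, at a difference of -4.96.

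Against IVF, Sall4 was 2.27-fold lower in TSA(+), by -1.19 (SE 0.27, limma adjusted p = 0.00123), with no overlap and values of -1.39 to -1.17 within slides. In TSA(-) it differed by -0.86 (SE 0.25, adjusted p = 0.0107), just short of the threshold, and it passed with all 7 groups fitted together (adjusted p = 0.00456), with only the groups compared, with normexp, in the authors' processed values and among probes well above background throughout a group. Within slides that difference ran from -2.0 to -0.19, and it was called on leaving out IVF replicate 4, TSA(-) replicate 5 or TSA(-) replicate 8 (-0.95 to -0.91). TSA(+) minus TSA(-) was -0.33 (interval -0.84 to 0.19, adjusted p = 0.55). In the order of group means (OC, Spi-C 0.1, Spi-C 1.0, IVF, TSA(-), TSA(+), Cumulus), neighbours differed at the step from OC, by 3.93, at that from IVF to TSA(-), by 0.86, and at that to Cumulus, which was not well above background.

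Spi-C NT, read with another scanner, was 1.98-fold above TSA(-) for Sall4, by 0.99 (SE 0.16, limma adjusted p = 4.0e-05), with no overlap. It differed from IVF by 0.13 (interval -0.24 to 0.50, adjusted p = 0.573). The second Sall4 probe, which was well above background on all 39 arrays, was lower in IVF than in OC by 1.1 on the log2 scale. All probes had a median of -0.87 there, and the mean signal of this probe before scaling was 103 units in OC and 141 in IVF. It was also higher in Spi-C NT than in TSA(-), by 1.1 (limma adjusted p = 1.6e-08), with mean signals of 504 and 137 units on different scanners. The second probe differed from the first in Spi-C NT against IVF, where it was called higher by 0.73 (limma adjusted p = 1.2e-05). They also differed in IVF against Cumulus, where the second gave -0.05 (adjusted p = 0.799) against a fold of at least 851 by the first probe. In TSA(-) against Cumulus the second gave -0.42 (limma adjusted p = 0.0213), while the first was called higher. In TSA(+) against IVF the second gave -0.44 (limma adjusted p = 0.0257), in the direction of the first and with no overlap. It was not called, so the Sall4 call there rests on the first probe. In TSA(-) against IVF the second gave -0.37 (adjusted p = 0.0485), also with no overlap and not called.

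Dppa4 was higher in every 2-cell group than in OC, and its levels in IVF and cloned embryos overlapped. Its levels in OC were -2.97, -4.55, -7.63, -4.95, -6.58, -8.07 and -7.55, of which 3 were well above background. The lowest, median and highest were 2.22, 2.56 and 2.69 in IVF, 2.09, 2.37 and 2.73 in TSA(-), and 2.49, 2.79 and 2.90 in TSA(+). It read 2.47, 1.96, 2.74 and 1.89 in Spi-C 0.1, 2.06, 2.57, 2.35 and 2.25 in Spi-C 1.0, and -8.99 to -8.40 in Cumulus, not well above background.

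Every 2-cell array lay above every OC array for Dppa4, and the 2-cell groups overlapped one another. IVF exceeded OC by 8.57 (SE 0.51, limma adjusted p = 3.0e-15) and TSA(-) exceeded OC by 8.40. These sizes rest on OC readings near background and moved with the processing, from 6.54 with normexp to 9.27 after quantile normalization for IVF. TSA(-) minus IVF was -0.17 (95% interval -1.17 to 0.84, adjusted p = 0.854), TSA(+) minus IVF was 0.23 (adjusted p = 0.782) and Spi-C NT minus IVF was -0.24 (adjusted p = 0.145). The fit behind the TSA(-) and TSA(+) values takes in OC, where the SD was 1.92. It was 0.16 in IVF, 0.24 in TSA(-) and 0.16 in TSA(+), so that interval is wider than the spread of the 2-cell arrays alone would give. Over 28 alternative settings, TSA(-) minus IVF was called in none. IVF was at least 514-fold and TSA(-) at least 458-fold above Cumulus. In the order of group means (TSA(+), IVF, TSA(-), Spi-C 1.0, Spi-C 0.1, OC, Cumulus), neighbours differed from Spi-C 0.1 to OC. The test also separated OC from Cumulus, but Cumulus was well above background on 0 of 4 arrays and OC on 3 of 7.

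Tfcp2l1, a factor of the LSF and grainyhead family, gave different answers by its 2 probes. By the brighter probe the lowest mean of the 2-cell groups was that of TSA(-) at -1.23 ± 0.29 (SD, n = 8), and the highest was that of Spi-C NT at -0.70 ± 0.30 (SD, n = 8), with OC at -0.95 ± 0.64 (SD, n = 7) and Cumulus at -5.89 ± 1.37 (SD, n = 4). By the other probe they were -6.97 ± 0.50 in OC, where no array was well above background, -3.80 ± 0.49 in IVF, -2.40 ± 0.15 in TSA(-), -2.37 ± 0.32 in TSA(+), -3.18 ± 0.47 in Spi-C NT and -4.18 ± 0.32 in Cumulus.

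From OC to IVF the brighter Tfcp2l1 probe changed by -0.15 (limma adjusted p = 0.686), whereas the other was at least 2.73-fold higher (adjusted p = 9.7e-14). From OC to TSA(-) they gave -0.28, not called, and a fold of at least 7.24 (limma adjusted p = 2.7e-18). With arrays centred on their median the brighter probe was called lower there, at -0.93 (limma adjusted p = 0.00745). In IVF against Cumulus the brighter probe was higher by 4.79, and the other gave 0.38 (limma adjusted p = 0.198). In TSA(-) against IVF the brighter probe gave -0.13 (adjusted p = 0.826) and the other 1.41 (SE 0.21, adjusted p = 7.1e-06), with no overlap, and TSA(+) gave -0.05 and 1.43. In Spi-C NT against TSA(-) the probes were called in opposite directions, at 0.52 (SE 0.14, adjusted p = 0.0064) and -0.78 (SE 0.19, adjusted p = 0.0023). The call of the brighter probe was lost on leaving out any 1 of 9 arrays (TSA(-) replicates 2, 3, 5, 6 and 8, Spi-C 1.0 replicates 3 and 4, Spi-C 0.1 replicates 1 and 3), at 0.45 to 0.52, with all 7 groups fitted together (adjusted p = 0.167), with median centring (0.35, adjusted p = 0.0744), after quantile normalization, with normexp, with only the groups compared, by Tukey's procedure and with slide as a random block. Which transcripts of the gene each probe reads was not tested.

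**Figure D3:**
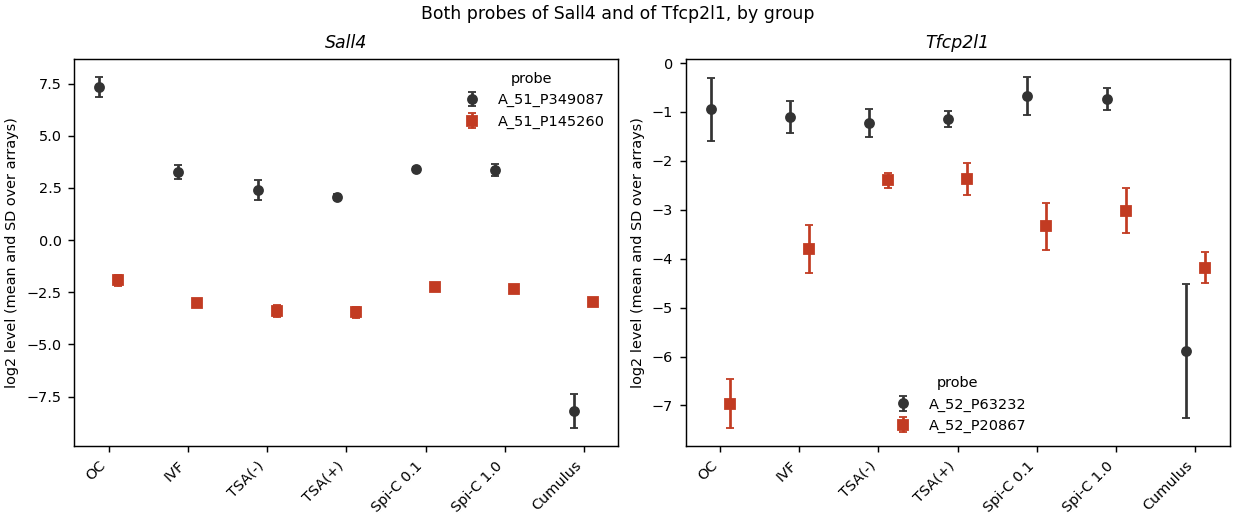
Mean log2 level of each of the 2 probes of Sall4 and of Tfcp2l1 in the 7 groups, relative to the 75th percentile of the array, with SD over the arrays as bars and circles for the brighter probe. The brighter Sall4 probe spans OC at 7.35 to Cumulus at -8.21 while the other stays within a narrow band, and the dimmer Tfcp2l1 probe separates IVF at -3.80 from TSA(-) at -2.40 while the brighter one does not.

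No gene of the set was called between clones with and without trichostatin A or between the amounts of Spi-C mRNA. Between TSA(+) and TSA(-) the differences ran from -0.33 for Sall4 to 0.50 for Klf5, and the widest interval was that of Nanog, from -1.31 to 0.72. The slide that held both groups, with a single array of each, gave 0.83 for Klf5, 0.82 for Sall4, 0.45 for Sox2 and -1.35 for Nanog. Between Spi-C 1.0 and Spi-C 0.1 the difference farthest from 0 was that of Nanog at 0.67 (95% interval -0.25 to 1.59, limma adjusted p = 0.999), and the others lay between -0.39 and 0.06. These 2 doses were hybridized on the same slides.

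Other genes of the network, from a list of 30 of which 28 had a probe, were described in the same comparisons. From OC to IVF 12 were higher and 12 lower, against 23.4% and 42.6% of all probes. The median of the 28 was -0.14 beside -0.87 over all probes. Mycn, a MYC family oncogene, was at least 117-fold higher in IVF than in OC, and Zfp42 (Rex1), a marker of embryonic stem cells, was higher by 6.50 (SE 0.58, limma adjusted p = 3.4e-11). Esrrb, which encodes an orphan nuclear receptor of stem cells, fell by 2.93 on the log2 scale (adjusted p = 3.4e-13), and Trim28, a corepressor of zinc finger proteins, fell by 3.55 (adjusted p = 3.5e-17).

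In TSA(-) against IVF 1 of these 28 was higher and 3 were lower, against 8.58% and 10.2% of all probes. The median of the 28 was -0.23 beside -0.04 over all probes. Otx2, a homeobox factor of the primed state, differed by -6.69 (SE 0.62, limma adjusted p = 2.1e-09), with 2 of 8 TSA(-) arrays above background, and it was at least 37.3-fold lower in Spi-C NT than in IVF. Tbx3, a T-box factor of the stem cell network, was at 2.38 ± 0.14 (SD, n = 6) in IVF and -0.66 ± 0.66 (SD, n = 8) in TSA(-), a difference of -3.04 (adjusted p = 6.0e-05). Zfp281 differed by -1.87 (adjusted p = 9.8e-07), and Tet2, a 5-methylcytosine dioxygenase, was higher by 1.72 (adjusted p = 0.0019).

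In TSA(+) against IVF 1 of the 28 was higher (Myc, by 0.93) and 4 were lower, against 8.02% and 10.8% of all probes. The lower genes were Otx2 at -6.24, Tbx3 at -3.82, Zfp281 at -1.93 and the Polycomb cofactor Jarid2 at -0.60. Spi-C NT had 3 higher and 10 lower than IVF, among them Tbx3 at -3.98, against 19.5% and 16.8% of all probes. Against TSA(-) it had 3 higher and 5 lower, against 12.3% and 8.89% of all probes. They were led by Trp53, the p53 gene, at 2.17 (SE 0.08, limma adjusted p = 9.7e-16) and Rest, a repressor of neuronal genes, at -1.39 (adjusted p = 7.4e-08). The Spi-C arrays were read with another scanner than those of IVF and TSA(-), so batch and group cannot be told apart in these values. Between TSA(+) and TSA(-), and between the doses, 0 of the 28 were called, against 0.144% and 0.00506% of all probes.

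Signalling genes of the LIF, FGF, BMP, Nodal and WNT pathways (22 listed, 19 with a probe) gave 4 higher and 4 lower in TSA(-) against IVF. Their median was 0.04, and 8.58% of all probes were higher and 10.2% lower. The ligand genes Wnt3 and Bmp4 differed by -4.52 (limma adjusted p = 2.3e-08) and -2.86 (adjusted p = 2.0e-06), and the BMP target Id1 by -1.59 (adjusted p = 2.7e-06). The STAT3 target Socs3, a feedback inhibitor, differed by -1.12. The receptor genes Lifr and Acvr2b were higher by 1.78 and 2.32, the Nodal coreceptor Tdgf1 by 1.62 and the WNT effector Ctnnb1 by 0.61. In TSA(+) 1 was higher (Ctnnb1, by 0.64) and 3 were lower than IVF (Wnt3, Bmp4 and Id1), against 8.02% and 10.8% of all probes. Spi-C NT, read with another scanner, had 6 higher and 7 lower than IVF, against 19.5% and 16.8% of all probes. It had 1 higher and 5 lower than TSA(-), among them the BMP receptor gene Bmpr1a at -1.27, against 12.3% and 8.89%.

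The relatives of Klf4, Klf5 and Klf17 (22 KLF and SP genes, 21 with a probe) had 10 higher and 7 lower from OC to IVF. Their median was 1.23, and 23.4% of all probes were higher and 42.6% lower. Klf6 was at least 118-fold, Klf3 at least 72.2-fold and Klf9 at least 49.0-fold higher in IVF than in OC. In TSA(-) against IVF the median was -0.43 beside -0.04 over all probes. There 0 genes were higher and 6 were lower, against 8.58% and 10.2% of all probes. The 6 genes were Sp8 at -6.47 (limma adjusted p = 3.1e-09, with 2 of 8 TSA(-) arrays above background), Sp5, a WNT target, at -3.57 (adjusted p = 4.5e-05), Sp6 at -2.34 (adjusted p = 3.4e-06), Klf10 at -0.94, Klf3 at -0.90 and Klf16 at -0.59. In TSA(+) 0 were higher and 6 were lower, against 8.02% and 10.8% of all probes, with Sp8 at least 55.8-fold below IVF, Sp5 at -2.63 and Sp6 at -1.76. Spi-C NT, read with another scanner, had 3 higher and 8 lower than IVF, against 19.5% and 16.8% of all probes. It had 1 higher than TSA(-), Klf13 at 0.73, against 12.3% of all probes.

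Paralogues of the remaining members (28 POU, SOX, SALL, TFCP2, GRHL, PRDM and DPPA genes, 25 with a probe) had 5 higher and 15 lower from OC to IVF. Their median was -1.41, and 23.4% of all probes were higher and 42.6% lower. Dppa2, the partner of Dppa4, was higher by 3.28 (limma adjusted p = 2.9e-15) and Sall2, a relative of Sall4, fell by 2.79 on the log2 scale (adjusted p = 3.0e-15). In TSA(-) against IVF 0 were higher and 5 were lower, against 8.58% and 10.2% of all probes, with a median of -0.31. The lower genes were the POU genes Pou3f1 at -4.70, Pou3f3 at -2.59 and Pou4f1 at -1.29, the endoderm factor Sox17 at -3.12 and Grhl1 at -0.79. In TSA(+) 1 was higher (Grhl2, by 1.5) and 5 were lower, led by Sox17 at -4.11 and Pou3f1 at -3.72, against 8.02% and 10.8% of all probes. Spi-C NT, read with another scanner, had 2 higher and 7 lower than IVF, against 19.5% and 16.8% of all probes. Sox15 was higher in it than in TSA(-) by 1.75 (limma adjusted p = 9.8e-08).

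**Figure D4:**
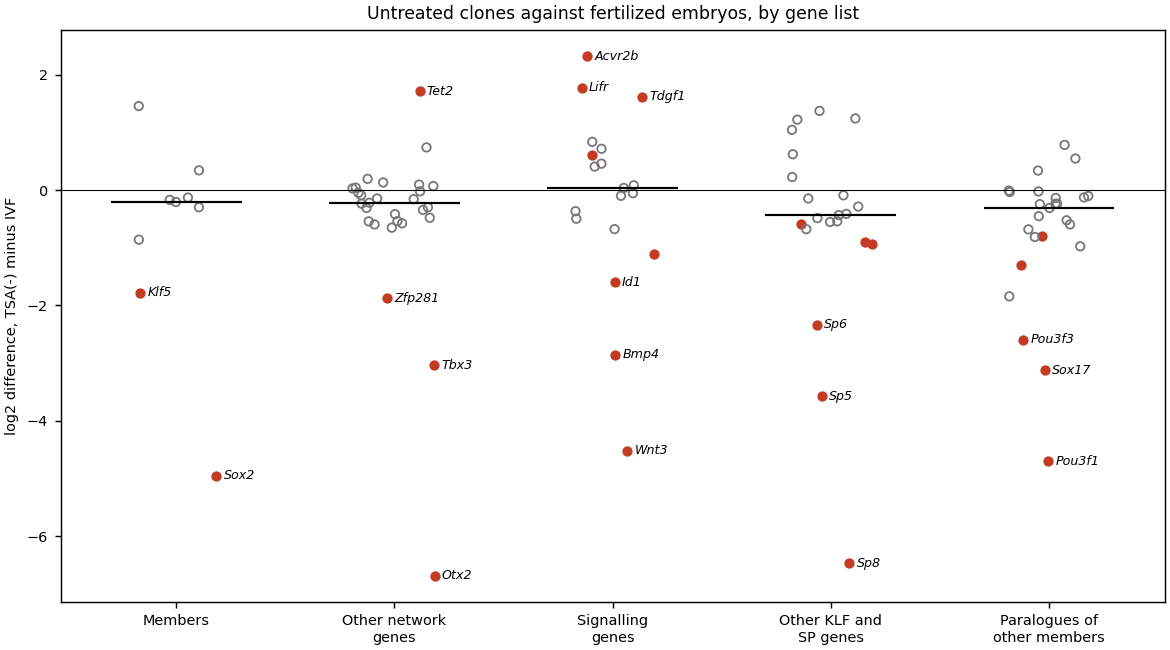
Difference in log2 level between TSA(-) clones and IVF embryos for each of the 9 measured members and each gene of the 4 other lists, with a bar at the median and filled points called at an adjusted p of 0.01. Most genes lie near 0, and the points lowest on the axis include Otx2 and Sp8, whose TSA(-) readings were above background on 2 of 8 arrays.

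Of the markers of the 2-cell stage, 6 of 9 were lower in TSA(-) than in IVF, 3 of 9 in TSA(+) and 8 of 9 in Spi-C NT. Among all probes, 10.2%, 10.8% and 16.8% were lower in these comparisons. The medians of the 9 markers in them were -1.06, -0.85 and -1.12. Between TSA(+) and TSA(-) directly, 0 of the 9 were called, with a median of 0.20, against 0.144% of all probes called. Against IVF, Spi-C NT differed by 0.13 for Sall4 and by -0.63 for Klf5, neither called. Of the oocyte markers 3 of 11 were lower in TSA(-) than in IVF and 8 of 11 in Spi-C NT, and of the cumulus markers 1 of 14 was lower in TSA(-). Their part in the differences of Sox2, Klf5 and Sall4 was not tested. Since each array holds 10 pooled embryos, fewer cells with a transcript and less of it per cell cannot be told apart.

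The genes whose pattern was most like that of a member over the 39 arrays, among 19306 probes well above background throughout at least 1 group, were ranked by Pearson's r. These values describe 7 groups of arrays rather than 39 independent points, and they share the contrast between Cumulus and the rest. For Sox2 they were Aldh9a1 (r = 0.971), Ttc9c (0.962) and Zfp108 (0.957), and for Klf5 Amn (0.971), Pcgf3 (0.970) and Rdm1 (0.966). Pou5f1 was most like Wee2 (0.996), Omt2b (0.995) and Gdap1 (0.994), and Sall4 most like Nlrp4b (0.993), Oas1h (0.991) and Oas1e (0.990). Dppa4 was most like Dnajb9 (0.983), Obox6 (0.983) and Papolb (0.981), and Klf17 most like Ptpdc1 (0.985), Efcab6 (0.983) and Th (0.983). The values were lower for Tfcp2l1 with Tgfb2 (0.956), Syt16 (0.954) and Ovol1 (0.953), for Klf4 with Mllt3 (0.927), Baz2a (0.925) and Rif1 (0.922), and for Nanog with Pbx4 (0.848), Abl2 (0.839) and Tmem168 (0.828).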

How the data were processed

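The authors deposited, for each of 39 arrays, Agilent Feature Extraction spot intensity (version 9.5.3.1 per the file headers, 10.5.1.1 for the Spi-C and Cumulus arrays, although the labels give 9.5.3.1 throughout). The authors also deposited a table of log2 values. After each probe was centred on its median, 99.6% of that table lay within 0.1 of the values used here, and its scale and centring are otherwise not stated. It was used as an alternative. Control spots and flagged outlier spots were left out, spots of a probe were averaged, and log2 intensity minus the array's 75th percentile was taken. Probes with 10 units or more on at least 1 IVF or SCNT array (39520 of 41174) were tested with limma 3.58.1 in R 4.3.3, at a Benjamini-Hochberg adjusted p under 0.01. One fit held OC, IVF, TSA(-), TSA(+) and Cumulus, a second the 2-cell groups with both Spi-C doses as 1 group, and another the doses apart. The study's one-way test with Tukey's procedure was an alternative. A fold was given as a bound ("at least") where no array of a group was well above background. Symbols came from RefSeq by transcript accession (23374 probes). The number of arrays limits the precision. The scripts were tested on simulated data. All members were named, with the 3 genes most correlated with each among those reported, and list genes called in a comparison or with the largest differences. Members and lists were chosen with earlier results of these data known. Some genes of the lists and rankings are not reported here. Samples were grouped by their labels, and replicate numbers did not pair them.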

Additional observations from a re-analysis of the deposited data

Results flagged for a closer look

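In 4 of 77 groups tested, 1 array lay apart from the rest of its group by Dixon's test, and chance gives about 1 in 20. Sox2 read 0.37 on OC replicate 6, below the 1.74 to 2.76 of the other 6 OC arrays. Klf4 read 1.56 on TSA(+) replicate 5, below the 2.31 to 2.50 of the others. Dppa4 read 2.22 on IVF replicate 1, below the 2.52 to 2.69 of the others. Pou5f1 read -8.03 on Cumulus replicate 1, below the -6.87 to -6.67 of the others, all of them not well above background.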

How the results depend on the processing

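Alternatives other than leaving out an array gave the same direction and side of the threshold in 1107 cases, lost a call in 27, gained one in 32 and turned the sign in 22. The number of the 9 genes called went from 4 to 7 for IVF minus OC after quantile normalization and to 7 with normexp, a setting that includes quantile normalization. For TSA(-) minus IVF it went from 2 to 4 with only the groups compared, to 4 at an adjusted p under 0.05 and to 1 with slide as a fixed block. It went from 3 to 5 for TSA(+) minus IVF and from 5 to 3 for Spi-C NT minus TSA(-) with only the groups compared, to 3 for the latter with all 7 groups, and from 3 to 6 for Spi-C NT minus IVF at an adjusted p under 0.05. On leaving out each array it ran from 8 to 9 (IVF minus Cumulus), 9 to 9 (TSA(-) minus Cumulus), 3 to 4 (IVF minus OC), 6 to 7 (TSA(-) minus OC), 2 to 3 (TSA(-) minus IVF), 2 to 3 (TSA(+) minus IVF), 0 to 0 (TSA(+) minus TSA(-)), 4 to 6 (Spi-C NT minus TSA(-)), 3 to 4 (Spi-C NT minus IVF) and 0 to 0 (the doses). The causes of these moves were not tested.

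Signs turned mainly with the scaling. For IVF minus OC, Pou5f1 gave 1.11 after quantile normalization and 1.14 with normexp, Klf17 gave 1.03 and 0.94, and with arrays centred on the median Nanog gave -0.25 and Sox2 -0.27. For TSA(-) minus OC, Pou5f1 gave 1.03 and 1.06 in the first pair of settings, and with median centring Klf4 gave -0.12 and Klf17 -0.48. With median centring Tfcp2l1 also gave 0.19 (TSA(+) minus IVF), Klf4 gave 0.10 (TSA(+) minus TSA(-)), -0.13 (Spi-C NT minus TSA(-)) and -0.011 (doses), and between the doses Sox2 gave -0.044, or -0.032 after quantile normalization, and Dppa4 -0.034. With slide as a fixed block Dppa4 gave -0.081 (TSA(+) minus IVF) and Sox2 -0.017 (TSA(+) minus TSA(-)), the latter -0.14 with scan day as a block. Apart from Pou5f1 from OC to TSA(-), the main values of these were not called, although Pou5f1, Sox2, Klf4 and Klf17 minus OC passed under some of these settings.

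On leaving out each array, values of both signs were met for Klf17 IVF minus OC (-0.34 to 0.098), Tfcp2l1 IVF minus OC (-0.31 to 0.010), Tfcp2l1 TSA(+) minus IVF (-0.13 to 0.064), Sox2 (-0.073 to 0.16) and Klf4 (-0.19 to 0.058) TSA(+) minus TSA(-), Klf4 Spi-C NT minus TSA(-) (-0.061 to 0.16), and between the doses for Pou5f1 (-0.18 to 0.018), Sox2 (-0.26 to 0.29), Klf4 (-0.034 to 0.21), Sall4 (-0.17 to 0.068), Tfcp2l1 (-0.22 to 0.098) and Dppa4 (-0.084 to 0.20), none of which was called.

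Samples of the same number did not deviate together (correlations of -0.087 to 0.15). With replicate number as a replicate block the number called was 3 for IVF minus OC (Klf4 lost, 0.76), 3 for TSA(-) minus IVF (Sall4 gained, -0.98), 2 for TSA(+) minus IVF (Klf5 lost, -1.27) and 4 for Spi-C NT minus TSA(-) (Tfcp2l1 lost, 0.51), where Klf4 turned to -0.18 and Dppa4 to 0.056, and the number did not move in the other 6 comparisons. Signal over background limits Nanog in OC and Cumulus, and Klf5 and Dppa4 in OC. Nanog was dim in the 2-cell groups too, although each of their arrays was well above background.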
